A study of Mus musculus with 28 samples.

Results

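The genes described here are the 32 genes of cholesterol and fatty acid synthesis and of its control by the sterol regulatory element binding proteins (SREBPs), out of 30608 genes in the expression table. They were chosen by name, from the pathway, with earlier results of these data known, and all 32 were found by symbol. They comprise 8 genes of the mevalonate pathway, 3 that make squalene and lanosterol, 8 that turn lanosterol into cholesterol, 4 that control SREBP, 3 of sterol transport and 6 of fatty acid synthesis and desaturation. A gene had to reach 10 normalized counts in at least 3 libraries to be tested, and 31 did. Fads1 did not and is described apart.

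The cells were CTLL2, a mouse cytotoxic T-cell line that grows on interleukin-2, labelled C57BL/6, and RNA was sequenced from 28 libraries. Exosome-treated cells received fresh complete medium with exosomes at 0.2 mg/ml, small vesicles shed by B16F0 mouse melanoma cells and resuspended in PBS, and were taken at 0.5, 2, 4 and 8 h (n = 3 each). Untreated cells received fresh complete medium and were taken at 0 h (n = 4) and at 0.5, 2, 4 and 8 h (n = 3 each), and no PBS is named for them. The series calls the replicates biological, and all come from 1 cell line. Every group shares the change to fresh medium, and cultures left in their old medium were not analysed here, so the medium change and time in culture cannot be told apart.

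Cells make cholesterol from acetyl-CoA through mevalonate, squalene and lanosterol, and make fatty acids from the same precursor through malonyl-CoA. When sterol in the endoplasmic reticulum is low, the escort protein SCAP carries SREBP to the Golgi, where proteases release a fragment that enters the nucleus and switches on genes of both pathways. INSIG proteins hold SCAP and SREBP back when sterol is high. Dividing T cells are known to draw on this programme for membrane growth.

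In promoters of such genes, SREBP acts at sterol regulatory elements, often next to CCAAT boxes, where the factor NF-Y binds. The promoters of Hsd17b7, Cyp51, Msmo1 and Insig1 are shown because these genes had the smallest p for change over time in untreated cells among members with a window that held CCAAT or TCACNNCAC. That of Hmgcs1 was added after the motif search, as the member with a match to TCACNCCAC, a common form of the sterol element. Each is a RefSeq window of 300 bases, from 250 before to 50 after the transcript start, written 5′ to 3′ on the strand of the gene (GRCm38.p6). They lie at chr1:169969156-169969455 (minus strand) for Hsd17b7, chr5:4104648-4104947 (minus strand) for Cyp51, chr8:64733529-64733828 (minus strand) for Msmo1, chr5:28071162-28071461 (plus strand) for Insig1 and chr13:119690101-119690400 (plus strand) for Hmgcs1. Capitals mark CCAAT on either strand, read as ATTGG on the opposite one, and TCACNNCAC.
Hsd17b7: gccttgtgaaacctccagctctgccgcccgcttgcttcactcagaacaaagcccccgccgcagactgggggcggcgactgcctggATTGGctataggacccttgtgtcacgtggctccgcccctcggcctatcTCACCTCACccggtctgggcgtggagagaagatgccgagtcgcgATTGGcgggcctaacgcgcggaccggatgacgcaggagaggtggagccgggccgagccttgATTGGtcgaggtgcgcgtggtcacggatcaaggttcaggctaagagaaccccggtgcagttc
Cyp51: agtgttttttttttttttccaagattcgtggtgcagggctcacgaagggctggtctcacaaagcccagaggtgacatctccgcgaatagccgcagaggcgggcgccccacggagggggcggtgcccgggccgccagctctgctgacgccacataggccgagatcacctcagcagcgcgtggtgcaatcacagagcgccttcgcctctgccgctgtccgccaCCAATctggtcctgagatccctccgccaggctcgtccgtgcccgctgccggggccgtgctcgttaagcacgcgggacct
Msmo1: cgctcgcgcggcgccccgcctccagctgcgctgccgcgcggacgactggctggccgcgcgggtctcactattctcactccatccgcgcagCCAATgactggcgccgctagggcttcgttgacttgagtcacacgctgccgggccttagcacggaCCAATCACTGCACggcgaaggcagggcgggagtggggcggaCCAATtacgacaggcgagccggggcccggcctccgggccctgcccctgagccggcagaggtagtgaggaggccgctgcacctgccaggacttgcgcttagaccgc
Insig1: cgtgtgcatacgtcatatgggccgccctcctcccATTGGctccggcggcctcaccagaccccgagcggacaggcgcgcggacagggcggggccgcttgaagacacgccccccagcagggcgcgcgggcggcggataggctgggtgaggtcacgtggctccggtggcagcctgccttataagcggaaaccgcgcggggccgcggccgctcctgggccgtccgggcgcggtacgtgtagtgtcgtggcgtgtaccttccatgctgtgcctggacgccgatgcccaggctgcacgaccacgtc
Hmgcs1: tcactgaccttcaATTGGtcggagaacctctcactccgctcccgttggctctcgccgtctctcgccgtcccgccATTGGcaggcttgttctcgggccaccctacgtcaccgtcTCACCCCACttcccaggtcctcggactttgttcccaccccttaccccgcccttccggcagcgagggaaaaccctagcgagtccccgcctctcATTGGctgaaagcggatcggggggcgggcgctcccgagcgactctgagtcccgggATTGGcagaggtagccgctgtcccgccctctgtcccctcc

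Hsd17b7 and Msmo1 each held 3 CCAAT boxes and 1 TCACNNCAC, Hmgcs1 held 4 and 1, and Cyp51 and Insig1 held 1 CCAAT box. In Msmo1 the middle CCAAT box shares 1 base with the TCACNNCAC match, and TCACNCCAC is a narrower form of TCACNNCAC. A window was found for 25 of the 32 members. Searched on both strands, CCAAT was in 21 of those 25 (84%) and in 41.1% of 27025 genes, and GGGCGG, the core bound by Sp1, likewise in 21 of 25 (84%) and in 38.2%. TCACNNCAC was in 4 of 25 (16%) and in 4.37% of genes, TCACNCCAC in 1 of 25 (4%) and 1.44%, and TCACNCNAC in 2 of 25 (8%) and 3.15%. CACGTG was in 5 of 25 (20%) and in 8.09% of genes, and TGACGTCA in 0 of 25 and in 2.03%. These are letter matches in 1 window per transcript start, and no binding was measured.

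Libraries held between 6072984 and 24085812 recovered reads, and the lowest value of a tested member in any library was 45.5 normalized counts (Tm7sf2). The sample descriptions name each library Set1 or Set2, read here as batch 1 and batch 2. By these names 1 library of each group is in batch 1 (9 libraries) and 19 are in batch 2. The summed level of 8 T cell genes lay between 103472 and 130004 normalized counts in treated libraries and between 103415 and 137147 in untreated ones, with none of the 8 at 0 in any group. Sums of 8 melanocyte genes were 59.8 to 176 with exosomes and 7.45 to 20.7 without, those of 6 macrophage genes 503 to 642 and 538 to 724, and those of 7 adipocyte and hepatocyte genes at most 8.58 and 5.17. Transcripts of skeletal muscle stood out in 8 libraries, with Acta1 at 75.2 to 415 normalized counts against at most 4.71 in the other 20: treated 0.5 h replicates 1 and 3, 2 h replicate 2 and 4 h replicates 1 and 2, and untreated 2 h replicate 2 and 8 h replicates 1 and 2. Sums of 10 muscle genes were 694 to 4013 in treated and 536 to 2516 in untreated libraries. In treated 8 h replicate 3 and untreated 4 h replicate 1 only 22.0% and 15.7% of genes were at 0, against 27.8% to 39.9% elsewhere.

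Per kilobase of exon, and averaged over all libraries, Scd2, a stearoyl-CoA desaturase, was the highest member at 5580.1 normalized counts per kb. Hmgcs1, the HMG-CoA synthase at the entry of the mevalonate pathway, followed at 1693 per kb and was below Scd2 in all 28 libraries. Npc2 at 1140.5 per kb was below Hmgcs1 in all 28. The neighbours from Srebf2 (1041) to Acly (1039.6) and Mvd (1018) changed places between libraries. Near the low end stood Idi1 (38.5 per kb), Acaca (33.8 per kb) and Tm7sf2 (22.1 per kb), and Fads1 was lowest at 0.403 per kb.

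The plainest pattern was a lower level of cholesterol synthesis transcripts 4 h after fresh medium, with and without exosomes. Not all of them rose again by 8 h, as given below. In treated cells 9 of 31 members were lower at 4 h than at 2 h (adjusted p below 0.05 by limma, where 0.715% of all genes were called lower) and 0 were higher (0.472%). Untreated cells had 5 of 31 lower over the same step, against 0.364% of all genes called lower, and 0 higher (0.135%). Against 0 h, 8 of 31 members were lower in untreated cells at 4 h (0.971% of all genes were called lower) and 0 were higher (0.223%). In these calls expression fell by 18.5% to 44.6% on the log2(normalized count + 1) scale. In bulk RNA, fewer cells of a type and less RNA per cell cannot be told apart.

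The 5 genes called in untreated cells over this step, Hsd17b7, Msmo1, Cyp51, Sqle and Sc5d, were all called in treated cells as well, where they were 55.6% of the calls. Treated cells added Hmgcs1, Acat2, Lss and Insig1. The arms share no library in this step. Of the 31 members 24 had negative log2 fold changes in both arms, and the log2 fold changes of the arms went together across members (Spearman rho = 0.83, Pearson r = 0.87, 31 genes measured in the same libraries, batches and common scaling, so not independent points). The median log2 fold change of the members was -0.26 in treated and -0.16 in untreated cells, and against 0 h it was -0.20, while the medians over all 14828 genes tested were 0.00, 0.00 and 0.01. Every 4 h library lay below every 2 h library for 15 of 31 members in treated cells (3.96% of all genes) and for 11 in untreated cells (3.64%), and below every 0 h library for 12 in untreated cells (3.89%). The lowest group mean was at 4 h for 21 of 31 members in treated cells (23.5% of all genes) and for 16 of 31 in untreated cells (13.6% of all genes). It was at 8 h for 5 of 31 in treated cells (27.7% of all genes) and 12 of 31 in untreated cells (34.5%).

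**Figure D1:**
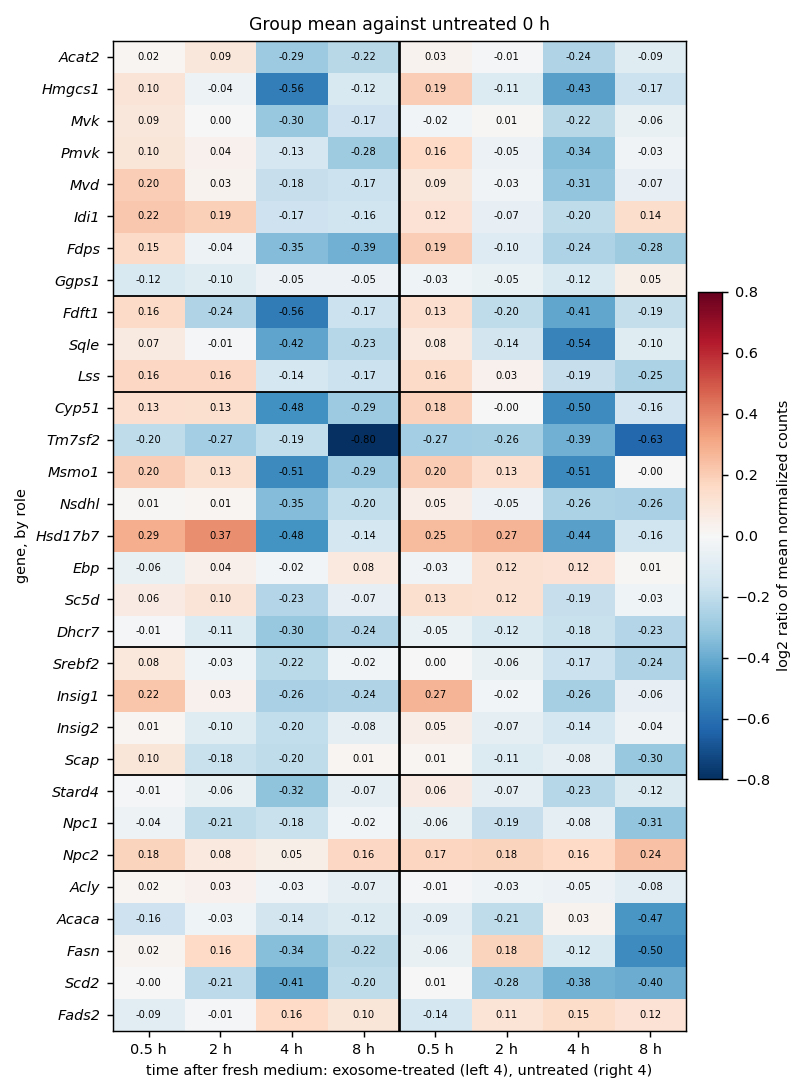
Log2 ratio of each group's mean normalized count to the mean of untreated cells at 0 h for the 31 tested members, ordered by role with black lines between roles. The 4 left columns are exosome-treated cells and the 4 right columns untreated cells at 0.5, 2, 4 and 8 h, and blue at 4 h is deepest for Hmgcs1, Fdft1, Sqle, Cyp51, Msmo1 and Hsd17b7 in both arms.

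By role, most calls over this step were in sterol synthesis, which also holds most of the members. Over the 2 to 4 h step, 4 of 8 genes from lanosterol to cholesterol were called lower in treated and 4 of 8 in untreated cells, with median log2 fold changes of -0.35 and -0.25. Of the squalene and lanosterol genes 2 of 3 were lower in treated and 1 of 3 in untreated cells (medians -0.36 and -0.22), and of the mevalonate genes 2 of 8 and 0 of 8 (medians -0.31 and -0.23). Of the 4 SREBP control genes 1 was called in treated and 0 in untreated cells. Of the 3 transport genes and 5 tested fatty acid genes none was called in either arm, at limma's threshold, with medians of -0.04 and -0.09 in treated cells and 0.02 and 0.00 in untreated cells. By unadjusted p under 0.05, 1 transport and 1 fatty acid gene passed in treated cells and 0 of each in untreated cells. On recovered reads, edgeR called none of them and DESeq2 1, Fasn in treated cells. Stard4 nonetheless had every 4 h library below every 2 h library in both arms. A difference between roles was not tested.

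**Figure D2:**
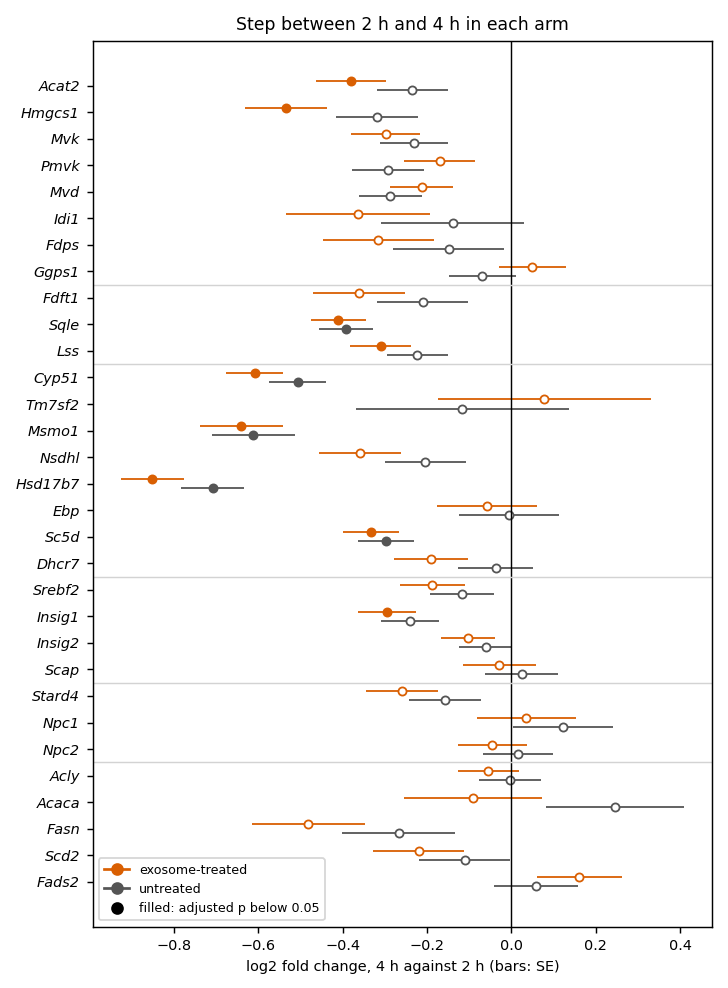
Log2 fold change from 2 h to 4 h with its standard error for each tested member, exosome-treated above untreated, ordered by role. Filled points passed adjusted p below 0.05 by limma, and the largest falls in both arms are those of Hsd17b7, Msmo1 and Cyp51.

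The mevalonate pathway opens with Acat2, a thiolase that joins acetyl units, and Hmgcs1. In exosome-treated cells Hmgcs1 was at 9474, 9080.0 and 8406 normalized counts at 0.5 h, 7659.7, 8974 and 7707 at 2 h, 4672, 7226 and 5174 at 4 h, and 9148, 6957 and 6949.7 at 8 h. Hmgcs1 in untreated cells was at 9806, 7576, 7962 and 8103 at 0 h, 10348, 9333 and 9034 at 0.5 h, 10212, 5921 and 7171 at 2 h, 5391, 8014 and 5181 at 4 h, and 8449.9, 6558 and 7247 at 8 h. The batch 1 library was the highest in all 9 groups, and the 4 h libraries lay below all of the 2 h libraries in treated cells and overlapped them in untreated cells. The log2 fold change from 2 h to 4 h was -0.53 ± 0.10 (adjusted p = 0.00459) in treated and -0.32 ± 0.10 (adjusted p = 0.181) in untreated cells, and against 0 h untreated cells at 4 h had -0.49 ± 0.09 (adjusted p = 0.00464). Exons of Hmgcs1 overlap those of Gm48342, on the other strand, over 12.1% of their length, and whether counting used strand is not stated. Acat2 averaged 542 ± 36.7 normalized counts at 4 h and 705 ± 21.5 at 2 h in treated cells (SD, n = 3 each), a log2 fold change of -0.38 ± 0.08 (adjusted p = 0.0206), with no overlap between the groups. This call was lost in 8 of 18 alternatives, 5 of which left out 1 library.

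Pmvk, the phosphomevalonate kinase, dipped at 4 h in untreated cells. In exosome-treated cells Pmvk was at 548, 572 and 576 normalized counts at 0.5 h, 526, 537 and 564 at 2 h, 461, 506 and 479 at 4 h, and 462, 414 and 429 at 8 h. Pmvk in untreated cells was at 559.5, 497, 517 and 543 at 0 h, 597, 623 and 554 at 0.5 h, 535, 495 and 506 at 2 h, 409.9, 442 and 402 at 4 h, and 643, 481 and 436 at 8 h. The untreated 8 h replicate 1, of batch 1, was the highest of all 28 libraries. Untreated 4 h libraries were below every 0 h library, at -0.35 ± 0.08 (adjusted p = 0.0249) on the log2 scale. The call was lost in 8 of 19 alternatives, among them 5 of the 7 that left out 1 library. Mvd, the decarboxylase that makes isopentenyl diphosphate, was at 1559.6, 1641 and 1501 normalized counts at 4 h and 2013, 1795, 1987 and 1996 at 0 h in untreated cells, with no overlap. Its log2 fold change was -0.32 ± 0.07 (adjusted p = 0.0129). The kinase gene Mvk, the isomerase gene Idi1 and the prenyl transferase genes Fdps and Ggps1 passed in neither 4 h step, with log2 fold changes between -0.36 and 0.05 in treated and between -0.23 and -0.07 in untreated cells. Exons of Fdps overlap another annotated gene over 26.7% of their length.

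Squalene is made by Fdft1, oxidised by Sqle, a control point of the pathway, and cyclised to lanosterol by Lss. In exosome-treated cells Sqle was at 2917, 3102 and 3412 normalized counts at 0.5 h, 2871, 3081 and 2935 at 2 h, 2386, 2186 and 2121 at 4 h, and 2482, 2649 and 2528 at 8 h. Sqle in untreated cells was at 3199, 2901, 2916 and 2953 at 0 h, 3164, 3142 and 3160.2 at 0.5 h, 2809, 2579.6 and 2734 at 2 h, 1949.7, 2202 and 2041 at 4 h, and 2912, 2737 and 2737 at 8 h. All 4 h libraries of either arm were below all 2 h libraries of the same arm. The log2 fold change from 2 h to 4 h was -0.41 ± 0.06 (adjusted p = 0.00093) in treated and -0.39 ± 0.06 (adjusted p = 0.00243) in untreated cells. Against 0 h the untreated value at 4 h was -0.54 ± 0.06 (adjusted p = 8.99e-06), so that Sqle fell by 31.2%, and this call held in all 19 alternatives run.

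Lss had a narrower range. In exosome-treated cells Lss was at 2922, 2949 and 3035 normalized counts at 0.5 h, 2909, 3095 and 2904 at 2 h, 2209, 2761 and 2249 at 4 h, and 2782, 2141 and 2139.9 at 8 h. Lss in untreated cells was at 2821, 2511, 2624 and 2650.0 at 0 h, 2909.9, 2937 and 3014 at 0.5 h, 2687, 2674 and 2788 at 2 h, 2168, 2519 and 2306 at 4 h, and 2287, 2168 and 2212 at 8 h. The 4 h libraries lay below the 2 h libraries in both arms, and the step was -0.31 ± 0.07 (adjusted p = 0.0297) in treated and -0.22 ± 0.07 (adjusted p = 0.235) in untreated cells. Fdft1 was at 718, 1147 and 716 normalized counts at 4 h and 1405, 982, 1135 and 1067 at 0 h in untreated cells, where the batch 1 library of each group was the highest and the groups overlapped. Its log2 fold change with the batch term was -0.48 ± 0.10 (adjusted p = 0.0126). The exons of Fdft1 overlap those of Ctsb, on the other strand, over 18.3% of their length.

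From lanosterol on, Cyp51 removes a methyl group, Msmo1, Nsdhl and Hsd17b7 remove a further pair, and Sc5d and Dhcr7 act near the end. Hsd17b7, the keto-reductase of that middle step, had the largest fall from 2 h to 4 h in both arms. In exosome-treated cells Hsd17b7 was at 947, 964 and 946 normalized counts at 0.5 h, 1005, 966 and 1050.0 at 2 h, 587, 569 and 518 at 4 h, and 689.9, 747 and 683 at 8 h. Hsd17b7 in untreated cells was at 898, 741, 734 and 738 at 0 h, 895, 950.4 and 940.0 at 0.5 h, 897, 941 and 982 at 2 h, 579, 563 and 583 at 4 h, and 649.7, 706 and 736 at 8 h. Its 4 h libraries stood below every other library of the same arm. The step from 2 h to 4 h was -0.85 ± 0.07 (adjusted p = 3.48e-07) in treated and -0.71 ± 0.07 (adjusted p = 1.46e-05) in untreated cells, so that Hsd17b7 fell by 44.6% in treated cells and fell by 38.8% in untreated cells. Hsd17b7 was also the 1 member called higher at 2 h than at 0 h in untreated cells, at 0.28 ± 0.07 (adjusted p = 0.0369), where 0.83% of all genes were called higher. That call was lost in 11 of 19 alternatives, among them 6 of the 7 that left out 1 library, and the batch 1 library at 0 h lay far above the other 3.

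Msmo1, the methylsterol oxidase, followed a like course. In exosome-treated cells Msmo1 was at 2396, 2683 and 2723 normalized counts at 0.5 h, 2333, 2715 and 2394 at 2 h, 1637, 1626 and 1504 at 4 h, and 1834, 1813 and 1915 at 8 h. Msmo1 in untreated cells was at 2249.6, 2168, 2277 and 2366 at 0 h, 2583, 2605 and 2639.6 at 0.5 h, 3165, 2040.3 and 2239 at 2 h, 1616, 1637 and 1531 at 4 h, and 2479, 2272 and 2036 at 8 h. No 4 h library overlapped the 2 h libraries in either arm. The step from 2 h to 4 h was -0.64 ± 0.10 (adjusted p = 0.00064) in treated and -0.61 ± 0.10 (adjusted p = 0.0018) in untreated cells, and both calls held in all 18 alternatives run. Untreated 2 h replicate 1, the batch 1 library, was the highest of all 28, and within batch 2 the untreated step was -0.44.

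Cyp51 was lower in the batch 1 library of every group. In exosome-treated cells Cyp51 was at 3373, 5175 and 5016 normalized counts at 0.5 h, 4899.7, 3617 and 5006 at 2 h, 3201, 2437 and 3203 at 4 h, and 2707, 3671 and 3728 at 8 h. Cyp51 in untreated cells was at 3663, 4168, 4258 and 4387 at 0 h, 3647, 5157 and 5216 at 0.5 h, 3714, 4095 and 4528 at 2 h, 3153, 2424 and 3140.1 at 4 h, and 3132, 4004 and 3959 at 8 h. Within each batch the 4 h values were below the 2 h values, and the 4 h and 2 h groups did not overlap in either arm. The step was -0.61 ± 0.07 (adjusted p = 1.09e-05) in treated and -0.51 ± 0.07 (adjusted p = 0.000313) in untreated cells. Without a batch term the same log2 fold changes had adjusted p = 0.353 in treated and 0.963 in untreated cells.

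Sc5d, the desaturase near the end of the pathway, was at 1317, 1393 and 1359.8 normalized counts at 4 h and 1666, 1826 and 1639 at 2 h in treated cells. Untreated cells had 1420.1, 1429 and 1353 at 4 h and 2015, 1507 and 1682 at 2 h. The groups did not overlap in either arm, and the log2 fold change was -0.33 ± 0.07 (adjusted p = 0.0105) in treated and -0.30 ± 0.07 (adjusted p = 0.0338) in untreated cells. Nsdhl had -0.36 ± 0.10 and -0.20 ± 0.10, Dhcr7 -0.19 ± 0.09 and -0.04 ± 0.09, the sterol isomerase gene Ebp -0.06 ± 0.12 and -0.01 ± 0.12, and the sterol reductase gene Tm7sf2 0.08 ± 0.25 and -0.12 ± 0.25 in treated and untreated cells, none of which passed.

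**Figure D3:**
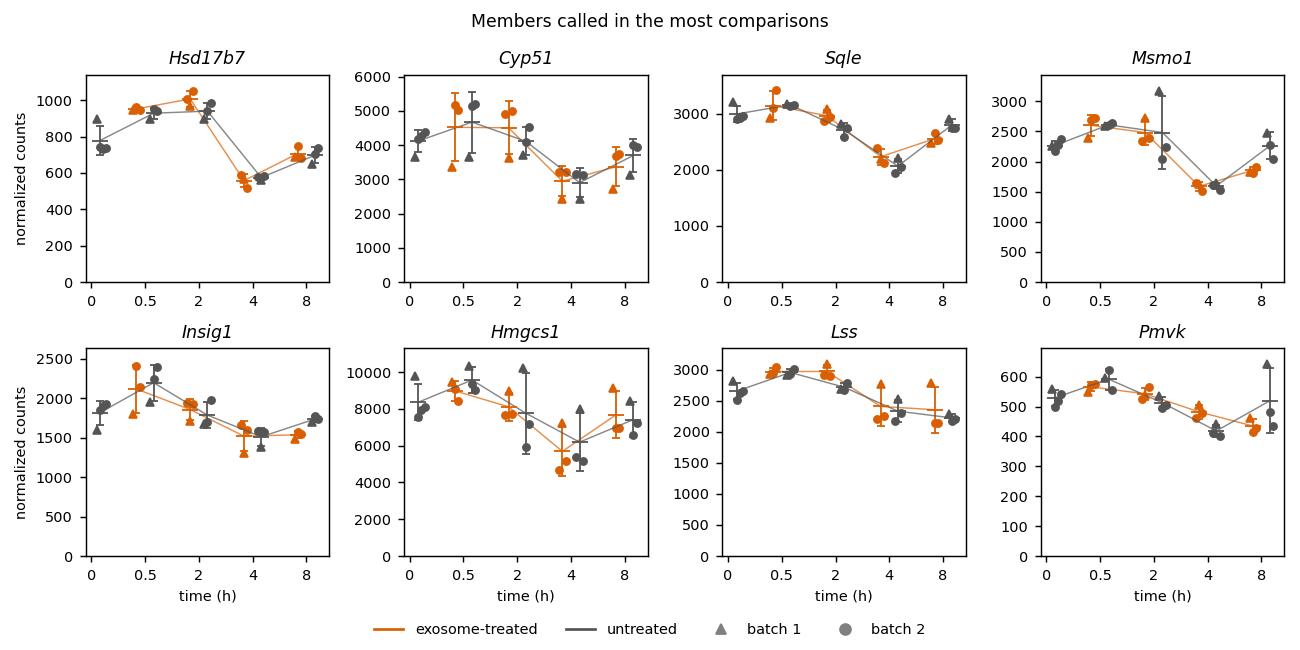
Normalized counts in each library over time for the 8 members called in the most comparisons, with exosome-treated cells in orange to the left of untreated cells in grey, triangles for batch 1 and circles for batch 2, and the mean and SD of each group. Hsd17b7, Cyp51, Sqle and Msmo1 have their 4 h libraries below their 2 h libraries in both arms, and batch 1 is low for Cyp51 and high for Hmgcs1.

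Among the control genes, Insig1, itself a target of SREBP, was highest at 0.5 h and lower later. In exosome-treated cells Insig1 was at 1796, 2408 and 2142 normalized counts at 0.5 h, 1939, 1704 and 1922 at 2 h, 1660.3, 1299 and 1594 at 4 h, and 1488, 1575 and 1543 at 8 h. Insig1 in untreated cells was at 1593, 1845, 1895 and 1923 at 0 h, 1948, 2239 and 2398 at 0.5 h, 1677, 1700.1 and 1977 at 2 h, 1584, 1378 and 1568 at 4 h, and 1701, 1774 and 1730.5 at 8 h. The batch 1 library was the lowest in all 9 groups. From 0.5 h to 2 h untreated cells had -0.30 ± 0.07 (adjusted p = 0.0177) on the log2 scale, the 1 member called lower over that step (1.46% of all genes were called lower). The next step, from 2 h to 4 h, was -0.29 ± 0.07 (adjusted p = 0.0277) in treated and -0.24 ± 0.07 (adjusted p = 0.134) in untreated cells, with all 4 h libraries below all 2 h libraries in both. The treated call was lost in 10 of 18 alternatives, batch 2 alone and 5 of the 6 that left out 1 library among them. Srebf2, which encodes the SREBP of sterol synthesis, had -0.19 ± 0.08 (adjusted p = 0.322) in treated and -0.12 ± 0.08 (adjusted p = 0.762) in untreated cells over the 4 h step. Insig2 and the escort gene Scap lay between -0.10 and 0.02 in both arms and did not pass.

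Of the transport genes, Stard4, a cytosolic sterol carrier, had -0.26 ± 0.09 (adjusted p = 0.174) in treated and -0.16 ± 0.09 (adjusted p = 0.665) in untreated cells over the 4 h step. Npc1 and Npc2, which let cholesterol leave lysosomes, lay between -0.04 and 0.12. In the fatty acid branch, Fasn, the fatty acid synthase, had -0.48 ± 0.13 (adjusted p = 0.0891) and -0.27 ± 0.13 (adjusted p = 0.62), Scd2 -0.22 ± 0.11 (adjusted p = 0.457) and -0.11 ± 0.11 (adjusted p = 0.882) in treated and untreated cells. Acly, Acaca and Fads2, which supply the precursor, commit it and desaturate the product, lay between -0.09 and 0.25 and did not pass. Against 0 h, 0 of 5 tested fatty acid members were called in untreated cells at 4 h, and 3 had negative log2 fold changes. The lowest was -0.39, and the smallest adjusted p was 0.0522 (limma). Scd2 had every 4 h library of either arm below every 0 h library (3.89% of all genes in untreated and 5.86% in treated cells). Fasn, Acaca, Acly and Fads2 overlapped the 0 h libraries.

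The counts at 4 h depend on how batch is treated. In batch 2 alone, 14 members were called lower over the step in treated cells (2.54% of all genes) and 5 in untreated cells (0.607%), and 12 were lower at 4 h than at 0 h (2.56%). In batch 1, with 1 library per group and no test, the medians of the members were -0.10 over the step in treated cells, -0.17 in untreated cells and -0.21 against 0 h. Without a batch term 3 members were called over the step in treated cells (0.101% of all genes), 3 in untreated cells (0.0607%) and 2 against 0 h (0.0674%). Left out together after the values were seen, the libraries with muscle transcripts took the treated count to 5 (Cyp51, Hmgcs1, Hsd17b7, Msmo1 and Sqle, where 0.216% of all genes were lower), with 1 treated 4 h library left and assumed to vary like the others, and the untreated counts to 7 over the step (0.391%) and 10 against 0 h (1.29%). The untreated 0 h and 4 h libraries hold no muscle transcripts above the level of the other libraries. Without untreated 4 h replicate 1, where few genes were at 0, and treated 8 h replicate 3, the untreated count against 0 h was 4 (0.459%). That count was also 4 without untreated 4 h replicate 3 (0.33%) and 5 without 0 h replicate 3 (0.688%), and the treated count was 5 without 2 h replicate 1 (0.263%). Calls of single genes were also lost for Lss over the treated step in 9 of 18 alternatives, for Sc5d in 5 of 18 in treated and 10 of 18 in untreated cells, and, against 0 h, for Mvd in 7, Fdft1 in 6 and Hmgcs1 in 4 of 19.

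From 4 h to 8 h 5 genes of cholesterol synthesis rose in untreated cells, while 14 of 31 members had negative log2 fold changes. Sqle (0.44 ± 0.06, adjusted p = 0.00336), Msmo1 (0.50 ± 0.10), Cyp51 (0.35 ± 0.07), Pmvk (0.29 ± 0.09) and Hsd17b7 (0.28 ± 0.07) were called higher, 5 of 31 members against 2.85% of all genes, and 0 were called lower (3.5%). In treated cells 0 of 31 were called (0.0337% of all genes), although 12 had an unadjusted p under 0.05, and edgeR called 0 and DESeq2 3. The unadjusted, edgeR and DESeq2 counts stand without the share of all genes. The member medians were close, 0.13 in treated and 0.10 in untreated cells. Every 8 h library lay above every 4 h library for 6 of 31 members in treated cells (5.08% of all genes) and for 5 in untreated cells (8.83%), in the untreated case Sqle, Msmo1, Hsd17b7, Insig1 and Sc5d. Muscle transcripts were present in 2 of the 3 untreated 8 h libraries, and with all such libraries set aside 1 member was called, Sqle (0.027% of all genes). That setting leaves 1 untreated 8 h library, replicate 3, which is assumed to vary like the other groups. Without untreated 8 h replicate 3 the count was 11, of which 7 were higher and 4 lower, when 12.4% of all genes were called higher and 12.5% lower. Without 8 h replicate 1 it was 3 higher (0.229% of all genes), and it was 1 higher, Sqle, without 8 h replicate 2 (0.0472%), 4 h replicate 2 (0.0607%) or 4 h replicate 3 (0.0809%).

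Against 0 h, 11 of 31 members were lower in untreated cells at 8 h and 0 higher, at a time when 15.8% of all genes were called lower and 15.9% higher. Both this comparison and that of 4 h share the 0 h libraries. The 11 genes include Fasn (-0.52 ± 0.13), Acaca (-0.49 ± 0.15) and Scd2 (-0.41 ± 0.10) of fatty acid synthesis. They also include Scap (-0.32 ± 0.08) and Srebf2 (-0.25 ± 0.07) of SREBP control and Npc1 (-0.33 ± 0.11). The rest are Tm7sf2, Fdps, Lss, Nsdhl and Dhcr7 of sterol synthesis, from -0.71 to -0.21. The call was lost in 14 of 19 alternatives for Dhcr7 and in 10 each for Fdps and Nsdhl. It was lost in 8 for Npc1, 7 for Acaca, 6 for Tm7sf2 and 2 to 5 for the other genes. Fasn was at 4882, 7011 and 9312 normalized counts at 8 h and 9515, 10486, 10058 and 9962 at 0 h, with every 8 h library below every 0 h library, as for 6 of 31 members and 10.4% of all genes. Acaca, the carboxylase that commits acetyl-CoA to fatty acids, was at 340.2, 413 and 612 at 8 h and 684, 632, 596 and 603 at 0 h, and the groups overlapped.

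In both genes the lowest untreated 8 h values came from replicates 1 and 2, which had Acta1 at 202 and 206 normalized counts, while replicate 3, at 3.57, lay higher. Replicate 1 is also the batch 1 library. In other groups the libraries with muscle transcripts were not always the lowest for Fasn. Untreated 2 h replicate 2 was at 13065, beside 7926 and 12922 in its group. Treated 0.5 h replicate 3 was at 11034, beside 11101 in replicate 2. Treated 4 h replicates 1 and 2 (the latter of batch 1) were at 6972 and 7148, below 9613 in replicate 3. Treated 0.5 h replicate 1 and 2 h replicate 2, of batch 1, were the lowest of their groups at 8353 and 7927. Without the libraries with muscle transcripts 1 of the 11 members was called, Tm7sf2 at -1.35 (adjusted p = 0.0309), where 2.5% of all genes were called lower. That setting sets 1 untreated 8 h library, replicate 3, against the 0 h libraries and takes the spread from the other groups, and Tm7sf2 was at 45.5 normalized counts in that library, its lowest value of all 28. The log2 fold changes were then -0.18 for Fasn (adjusted p = 0.483), -0.18 for Scd2 (adjusted p = 0.42) and 0.02 for Npc1 (adjusted p = 0.948). The part of muscle RNA in these values was not tested beyond this. Without a batch term 3 members were called (6.16% of all genes), 3 without untreated 8 h replicate 2 (7.83%), 6 without 8 h replicate 1 (9.3%) and 6 without 0 h replicate 1 (12.2%). Exons of Tm7sf2 and Scap overlap other annotated genes over 12.1% and 13.2% of their length.

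**Figure D4:**
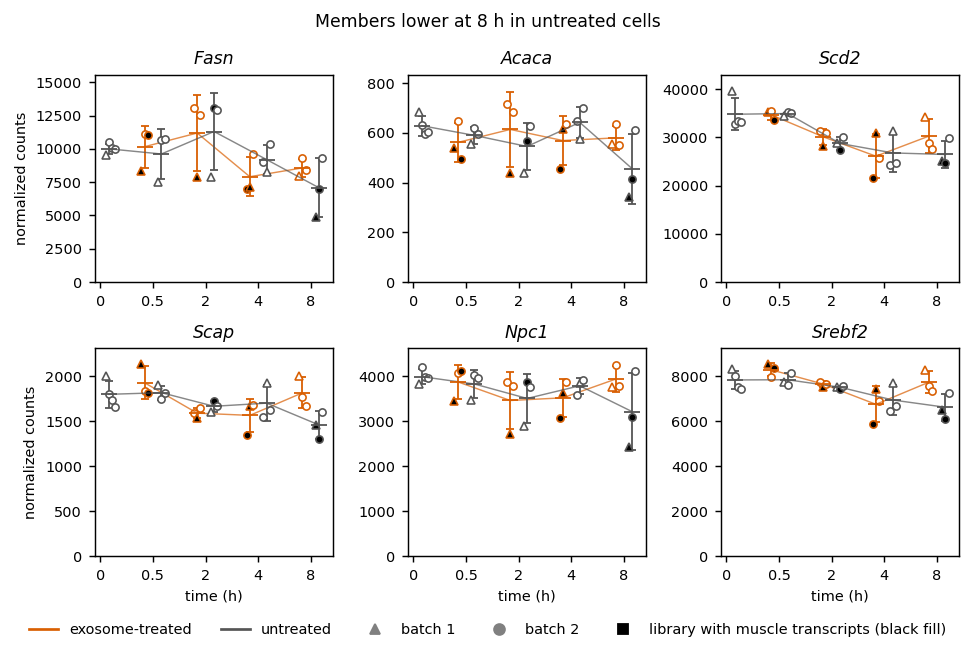
Normalized counts in each library over time for 6 of the members lower at 8 h than at 0 h in untreated cells, exosome-treated in orange to the left of untreated in grey, with batch by marker shape, black fill for the 8 libraries with muscle transcripts, and the mean and SD of each group. Among untreated 8 h libraries of Fasn, Acaca and Npc1, the 2 black ones lie below the open one.

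Before 4 h few members were called. At 0.5 h 0 of 31 were called against 0 h in untreated cells (0.189% of all genes), where 5 had an unadjusted p under 0.05 and edgeR called 0 and DESeq2 1. Insig1, Msmo1, Sc5d and Lss had every 0.5 h library above every 0 h library, 4 of 31 members against 2.45% of all genes. From 0.5 h to 2 h 0 of 31 were called in treated cells (1.58% of all genes), with 4 under the unadjusted 0.05, and edgeR called 0 and DESeq2 1. In untreated cells, where Insig1 was called over this step, 26 of 31 had negative log2 fold changes with a median of -0.11. There 9 were lower at an unadjusted p under 0.05, and edgeR called 1 and DESeq2 4 lower. The unadjusted, edgeR and DESeq2 counts of these early steps stand without the share of all genes. Batch 2 alone gave 5 lower there (Cyp51, Fdft1, Hmgcs1, Insig1 and Msmo1, with 1.75% of all genes called lower). Every 2 h library lay below every 0.5 h library for 6 of 31 members in treated cells (6.7% of all genes) and for 10 in untreated cells (6.75%). Tested over all times in untreated cells, 17 of 31 members changed (moderated F test, adjusted p below 0.05), against 21.6% of all genes. They were 5 of 8 genes from lanosterol to cholesterol, 3 of 3 of squalene and lanosterol, 4 of 8 of the mevalonate pathway, 3 of 4 control genes, 0 of 3 transport genes and 2 of 5 tested fatty acid genes. Hsd17b7 (adjusted p = 1.44e-06), Cyp51 (adjusted p = 3.6e-06) and Sqle (adjusted p = 4e-06) had the smallest p.

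Exosome-treated cells set against untreated cells of the same time gave no called member. Of 31 members, 0 were called at 0.5, 2, 4 and 8 h, when 0.243%, 0.189%, 0.155% and 0.452% of all genes were, and 0 in the mean over the 4 times, when 0.459% were. By unadjusted p under 0.05 the numbers were 0, 0, 1 and 9 at the 4 times and 0 for the mean. On recovered reads edgeR called 0 throughout, and DESeq2 called 2 at 8 h, Scap and Srebf2, and 0 elsewhere. These counts stand without the share of all genes, so the 9 at 8 h are not a result about the members. The mean effects ran from -0.07 for Msmo1 to 0.07 for Srebf2, with a median of -0.01, against 0.00 for all genes. Apart from Tm7sf2, whose 95% interval was -0.22 to 0.30, every interval of the mean effect lay between -0.18 (Fdps) and 0.24 (Acaca). For Hsd17b7 it was -0.05 to 0.10, for Cyp51 -0.08 to 0.06 and for Sqle -0.04 to 0.09.

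**Figure D5:**
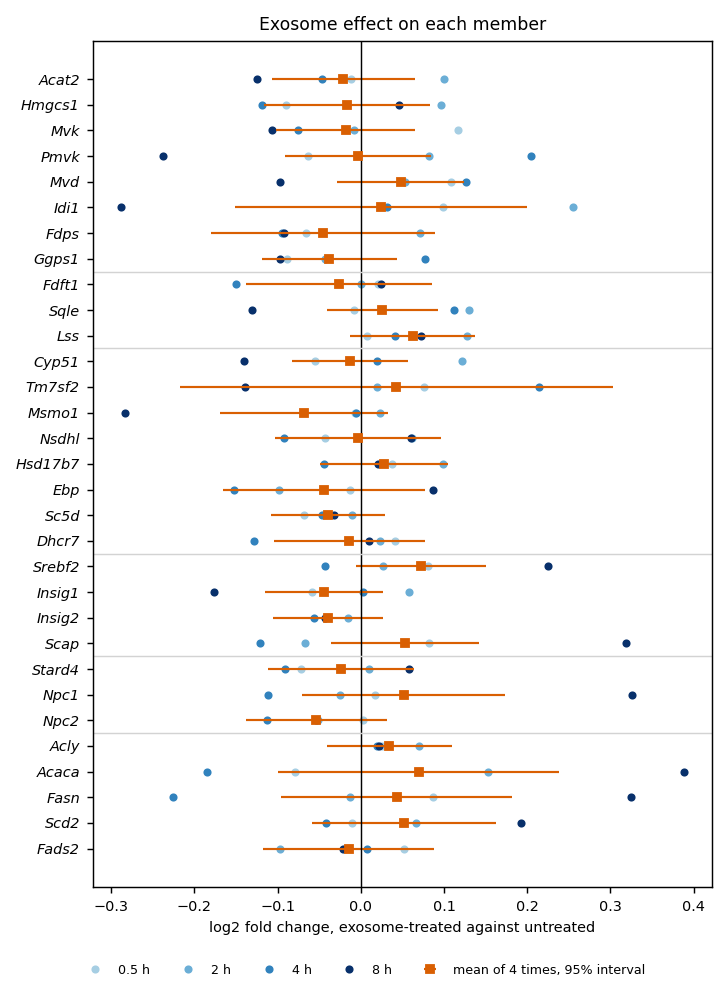
Log2 fold change of exosome-treated against untreated cells for each tested member, at each of the 4 times (circles, darker with time) and as their mean with its 95% interval (squares). The means lie between -0.07 and 0.07, and the widest spread is at 8 h, from -0.29 for Idi1 to 0.39 for Acaca.

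The 8 h values were the most spread. Scap averaged 1816 ± 174 normalized counts in treated and 1457 ± 151 in untreated cells (SD, n = 3 each) without overlap, at 0.32 ± 0.09 (adjusted p = 0.0772), and Srebf2 7730.5 ± 496 and 6622 ± 593, also without overlap, at 0.23 ± 0.08 (adjusted p = 0.0891). Msmo1 had 1834, 1813 and 1915 in treated and 2479, 2272 and 2036 in untreated cells, again without overlap, at -0.28 ± 0.10 (adjusted p = 0.0916). In all, 2 members had every treated 8 h library above every untreated one and 3 (Insig1, Msmo1 and Sqle) every one below, as did 5.37% and 7.79% of all genes. Muscle transcripts were in 0 of 3 treated and 2 of 3 untreated 8 h libraries. Without untreated 8 h replicate 3, which leaves those 2, 9 members were called (Acaca, Fasn, Npc1, Scap, Scd2 and Srebf2 higher, Insig1, Msmo1 and Pmvk lower), as were 26.3% of all genes. Without the libraries with muscle transcripts 0 were called (0.135%), with 1 untreated 8 h library left and its spread taken from the other groups.

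Whether the exosome effect differed between times was tested with a moderated F test, which called 0 of 31 members and 0 of 14828 genes, with a smallest adjusted p of 0.366 among the members. By unadjusted p under 0.05 there were 3 members, and edgeR and DESeq2 called 0. Without untreated 8 h replicate 3 it called 3 members, Npc1, Pmvk and Scap, and 9.08% of all genes.

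Fads1, a desaturase of polyunsaturated fatty acids, was near the limit of detection. Over the 12 treated libraries 45 reads were recovered, at 0.715 normalized counts in the lowest, 3.68 in the median and 6.62 in the highest library. The 12 untreated libraries at the same times held 8 reads in all, and 9 of them were at 0, with 4.31 in the highest. Read for read, with depth taken into account, treated cells had 5.98 times the untreated level (95% interval 2.79 to 14.7, counting error only). A limma fit with no filter on low values gave a mean exosome effect of 1.68 ± 0.30 (log2, SE, adjusted p = 0.00167), in which 0.631% of all 30608 genes were called, and it was the 1 member called. At such counts 3 reads amount to 1.88 to 7.47 normalized counts, and melanocyte transcripts were likewise higher in the treated libraries, whose part in this value was not tested. Its sister gene Fads2, at 442 normalized counts on average, had a mean exosome effect of -0.01 (-0.12 to 0.09).

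Other genes of the SREBP machinery and of lipid synthesis were listed beside the members, 23 in all and 21 tested. Over the 2 to 4 h step 1 of 21 was called lower in each arm, in both cases Aacs, which activates acetoacetate for lipid synthesis. Aacs averaged 1162 ± 203 at 4 h and 1524 ± 425 normalized counts at 2 h in treated cells, and 1171 ± 214 and 1505 ± 338 in untreated cells (SD, n = 3 each). The SD at 2 h is as large as the difference in both arms, and with the batch term the log2 fold changes were -0.36 ± 0.07 (adjusted p = 0.00929) and -0.35 ± 0.07 (adjusted p = 0.0163). Lpin1, a phosphatidate phosphatase and a known SREBP target, had another timing, with its lowest mean at 2 h. It averaged 533 ± 20.7 at 2 h and 959 ± 90.1 at 0.5 h in treated cells, and 542 ± 44.4 and 995 ± 31.1 in untreated cells, with log2 fold changes of -0.84 ± 0.14 (adjusted p = 0.00112) and -0.88 ± 0.14 (adjusted p = 0.000525). Over all times in untreated cells 3 of 21 changed, these 2 and Dhdds, a gene of dolichol synthesis, against 21.6% of all genes. Srebf1, which encodes the SREBP of fatty acid synthesis, was at 3267 ± 246 in treated and 3047 ± 134 in untreated cells at 4 h and passed in no comparison. Of the 21, Scd1 alone was called in an exosome comparison, at a mean effect of 0.80 ± 0.17 (adjusted p = 0.0193). Its group means were 24.4 to 26.1 normalized counts in treated and 13.9 to 16.9 in untreated cells. How any reads shared with the far more abundant Scd2 were counted is not stated, and their part in the Scd1 value was not tested. Mean exosome effects of the tested fatty acid members, Scd2 among them, ran from -0.01 to 0.07. Melanocyte transcripts were higher in the treated libraries too, and their part in the Scd1 value was not tested.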

How the data were processed

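RNA of 28 libraries was measured by sequencing after TRIzol extraction and TruSeq RNA library preparation, per the labels' protocols. CASAVA 1.8.4, STAR 2.4.2, featureCounts 1.5.0, DESeq2, R 3.3.2 and GRCm38.p2 are named in the submitters' processing notes, while the sources used here give no rule on strand or multi-mapping reads. The deposited values are a signal of normalized counts, in which read counts were divided by the authors by 1 size factor per library. Divided by the worth of 1 read, 100% of values came out whole (tolerance 0.01 read; in untreated 0.5 h replicate 2 the size factor, 0.995, is so near 1 that the step is less distinct), with 6072984 to 24085812 reads per library. A floor of 3 reads equals 1.88 to 7.47 normalized counts, and intervals from reads cover counting error only. No column was left unmapped (0 columns without a sample). Of 30608 Ensembl IDs, 30403 were found in GENCODE release M21, which gave symbols and exon lengths.

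The test was limma 3.58.1 in R 4.3.3, with a mean-variance trend, on log2(normalized count + 1), for 14828 genes with at least 10 normalized counts in at least 3 libraries. The fit held 9 group means and a batch term from the set names in the sample descriptions (18 residual degrees of freedom). P-values are two-sided, with Benjamini-Hochberg adjustment across the tested genes and a threshold of 0.05, and fold changes are given ± SE. P-values measure the spread between samples of 1 cell line. Because the deposited values are scaled, edgeR 4.0.16 and DESeq2 1.42.0 ran on recovered reads as alternatives. Counts by these methods or by unadjusted p are given without the share of all genes. They do not set the members apart from all genes. Other alternatives were a pseudocount of 8, other filters, no batch term, batch 2 alone, TMM scaling, quantile normalization and leaving out each library. A replicate block was also run, and it took the place of the batch term. Chosen after seeing the data were fits without the libraries with muscle transcripts or with few genes at 0. The fit was also run on simulated reads, with changes set in untreated cells at 4 h and no batch effect. That run therefore does not check the batch term. All 32 members were named. Of 2 further gene lists, genes changed over time in untreated cells or called in an exosome comparison were named, and values by library were given for the 8 members called most often. The members, lists and tests were chosen with earlier results of these data known.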

Additional observations from a re-analysis of the deposited data

Results flagged for a closer look

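In the untreated 0 h group, the 1 group with 4 libraries, 3 of 31 tested members had a library far from the others, measured as its gap to the nearest library over the range of the group. Chance flags about 1 in 20 groups, a rate that takes no account of batch. The share of all genes flagged is not given, so the count does not set the members apart from all genes. Hsd17b7 was at 898 normalized counts in replicate 1 and at 734 to 741 in the other 3 libraries, a gap of 0.956 of the range. Scd2 was at 39697 in replicate 1 and at 32868 to 33493 in the others, a gap of 0.909. Replicate 1 is the batch 1 library. Mvd was at 1795 in replicate 2 and at 1987 to 2013 in the others, a gap of 0.881.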

How the results depend on the processing

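Counts of called members are given here as they moved by over 1.5 times. The replicate block took the place of the batch term, so counts with the block are also counts without a batch term. For untreated 4 h against 0 h (8 in the report) they were 2 with no batch term, 1 with the replicate block and 4 without the libraries with few genes at 0, and 4 to 8 with 1 library left out. For treated 4 h against 2 h (9) they were 3 with no batch term, 14 in batch 2 alone, 3 with the block and 5 without the libraries with muscle transcripts, and 5 to 8 with 1 library left out. For untreated 4 h against 2 h (5) they were 3 with no batch term and 2 with the block, and 4 to 5. For untreated 8 h against 4 h (5) they were 3 with no filter, 1 with no batch term, 0 with the block, 10 with DESeq2 and 1 without the muscle libraries, and 1 to 11. The value of 11 came without untreated 8 h replicate 3, 3 without 8 h replicate 1, and 1 without 8 h replicate 2, 4 h replicate 2 or 4 h replicate 3. For treated 8 h against 4 h (0) they were 2 with a filter at 50 normalized counts, 6 in batch 2 alone and 3 with DESeq2, and 0 to 1. For untreated 8 h against 0 h (11) they were 7 with no filter, 3 with no batch term, 0 with the block and 1 without the muscle libraries, and 3 to 9. For untreated 2 h against 0 h (1) they were 0 with no filter, no batch term, the block, without the muscle libraries or without those with few genes at 0, and 2 in batch 2 alone, and 0 to 1. For untreated 2 h against 0.5 h (1) they were 0 with no batch term, the block or without the muscle libraries, 5 in batch 2 alone, 2 with quantile normalization and 4 with DESeq2, and 0 to 2. For untreated 0.5 h against 0 h (0) they were 2 in batch 2 alone, 1 with DESeq2 and 1 without the muscle libraries, and 0 to 1. For treated 2 h against 0.5 h (0) the count was 1 with DESeq2, and 0 with any library left out. For the change over time in untreated cells (17) they were 5 with no batch term and 3 with the block, and 12 to 21. For the exosome effect at 8 h (0) they were 2 with DESeq2, and 0 to 9, and for its difference between times (0) 0 to 3, both highest without untreated 8 h replicate 3. For the mean exosome effect (0) the count was 1 with no filter, which is Fads1, and at 0.5, 2 and 4 h it was 0 under every alternative run. The causes were not tested. The share of all genes called also moved with the setting and is not given beside each count here. For untreated 8 h against 4 h, 12.4% of all genes were called higher without untreated 8 h replicate 3. Without untreated 8 h replicate 2 that share was 0.0472%. These counts alone therefore do not set the members apart from all genes.

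Of 57 single-gene calls under 1216 alternatives in all, 950 were kept, 265 lost and 1 turned round, that of Npc1 at 8 h against 0 h without the muscle libraries (log2 fold change 0.0155). Hsd17b7, Msmo1 and Sqle kept their call in treated 4 h against 2 h in all 18 alternatives. The labels do not say that replicate numbers pair the samples. Deviations of same-numbered treated and untreated libraries correlated from -0.539 to 0.727, over 0.1 in 10 of 12 pairs. Replicates 1 and 2 at 2 h, whose numbers cross the batches, had -0.539 and -0.302. Batch was not removed from the deviations, so the correlations cannot show whether the numbers pair the samples. As the labels state no pairing, the replicate block was not taken as one.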

Other observations

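Of 9 genes of cholesterol storage, lysosomal release and export, 6 were tested and 0 changed over time in untreated cells (moderated F test, 0 at an unadjusted p under 0.05). That test called 21.6% of all genes, so 0 of 6 does not set these genes apart. The 1 call among them was Soat1, which esterifies cholesterol for storage, at 8 h against 0 h in untreated cells (3436 ± 393 normalized counts at 8 h, n = 3, and 4053 ± 303 at 0 h, SD, n = 4, log2 fold change -0.25 ± 0.08, adjusted p = 0.0261), where 15.8% of all genes were called lower, and it is named after its value was seen. The cholesterol exporter gene Abcg1 averaged 571 to 675 normalized counts in the 9 groups, while its relative Abca1 averaged 0.368 to 2.16, below the level of 3 reads.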
